A study of Anopheles gambiae with 60 samples.

Results

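Among the 16884 *Anopheles* probe sets of the array, 109 were bright in the testis and dim in every other dissected tissue. They were chosen on measured values: a mean log2 intensity of at least 10 over the 4 testis arrays, and a testis mean at least 5 above the level in each of the midgut, Malpighian tubules, head, carcass, ovary, salivary gland and male accessory gland. The level of a tissue with arrays of both sexes was the higher of the female and male means. The whole-body arrays played no part in the choice. The same 2 thresholds applied to other tissues gave 65 probe sets for the midgut, 43 for the salivary gland, 40 for the accessory gland, 34 for the Malpighian tubules, 23 for the ovary, 18 for the head and 12 for the carcass.

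RNA of adult *Anopheles gambiae*, the malaria mosquito, had been hybridized to 60 Affymetrix arrays, 4 for each of 15 groups. The groups were testis and accessory gland (labelled acps) of males, ovary of females, and, from each sex, whole body, salivary gland, Malpighian tubules, midgut, carcass and head. Males and females were siblings of 1 strain, kept apart to prevent mating. Per the study's methods, females were fed blood at 3 days of age and males of the same age were dissected alongside, whereas the labels give an age of 5 days and name the blood meal for both sexes. By the methods, sex and blood feeding cannot be told apart. Each of the 4 biological replicates pooled RNA of at least 10 mosquitoes from each of 3 times after the meal (24, 48 and 72 h), so neither single males nor single times can be followed. The carcass was what remained of thorax and abdomen after the other organs had been taken out, and whole-body samples contained all organs. Arrays had been normalized within each tissue, both sexes together, so that levels of different tissues do not share a scale. The lowest log2 value, a floor common to all arrays of a tissue, lay between 2.35 in the testis and 2.40 in the salivary gland.

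The testis of an insect is mainly a germ line organ, in which stem cells divide, pass through meiosis and are rebuilt into sperm. Spermatocytes and spermatids are known, best in *Drosophila*, for a large set of transcripts that other tissues lack, among them parts of the sperm tail, of the packaging of sperm chromatin and of meiosis. The accessory gland makes seminal fluid, and the salivary gland, Malpighian tubules and midgut serve feeding, excretion and digestion. The intensity table pairs no probe set with a gene product, so none of the 109 could be given a role. Markers of the testis, such as its own beta tubulin, could not be found among the probe sets, and the label was not checked against them. Of the 109, 13 could be joined to a gene identifier, through the match of their tissue profiles to published relative abundances. These were AGAP001273, AGAP001419, AGAP001620, AGAP001639, AGAP001735, AGAP002365, AGAP007107, AGAP008412, AGAP008614, AGAP008689, AGAP008896, AGAP009317 and AGAP009741. Other probe sets are named by the array's identifier, which gives a chromosome arm, a cluster number and mostly CDS for coding sequence or UTR for untranslated region.

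Testis means of the 109 ran from 10 to 14.31, with a median of 11.28. These levels were used in the choice and are described without a test. The median over the members on the single testis arrays was 11.47, 11.28, 11.25 and 11.11 for replicates 1 to 4, and every member stood above a log2 of 5 on all of them. As a share of the summed linear intensity of all *Anopheles* probe sets, the 109 made up 15.5%, 14.8%, 14.7% and 13.3% of the testis arrays. On no array of another group did this share pass 0.51%, the value of male whole body replicate 2. The heat map of all arrays shows the block of testis signal beside fainter signal in a few male groups.

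**Figure D1:**
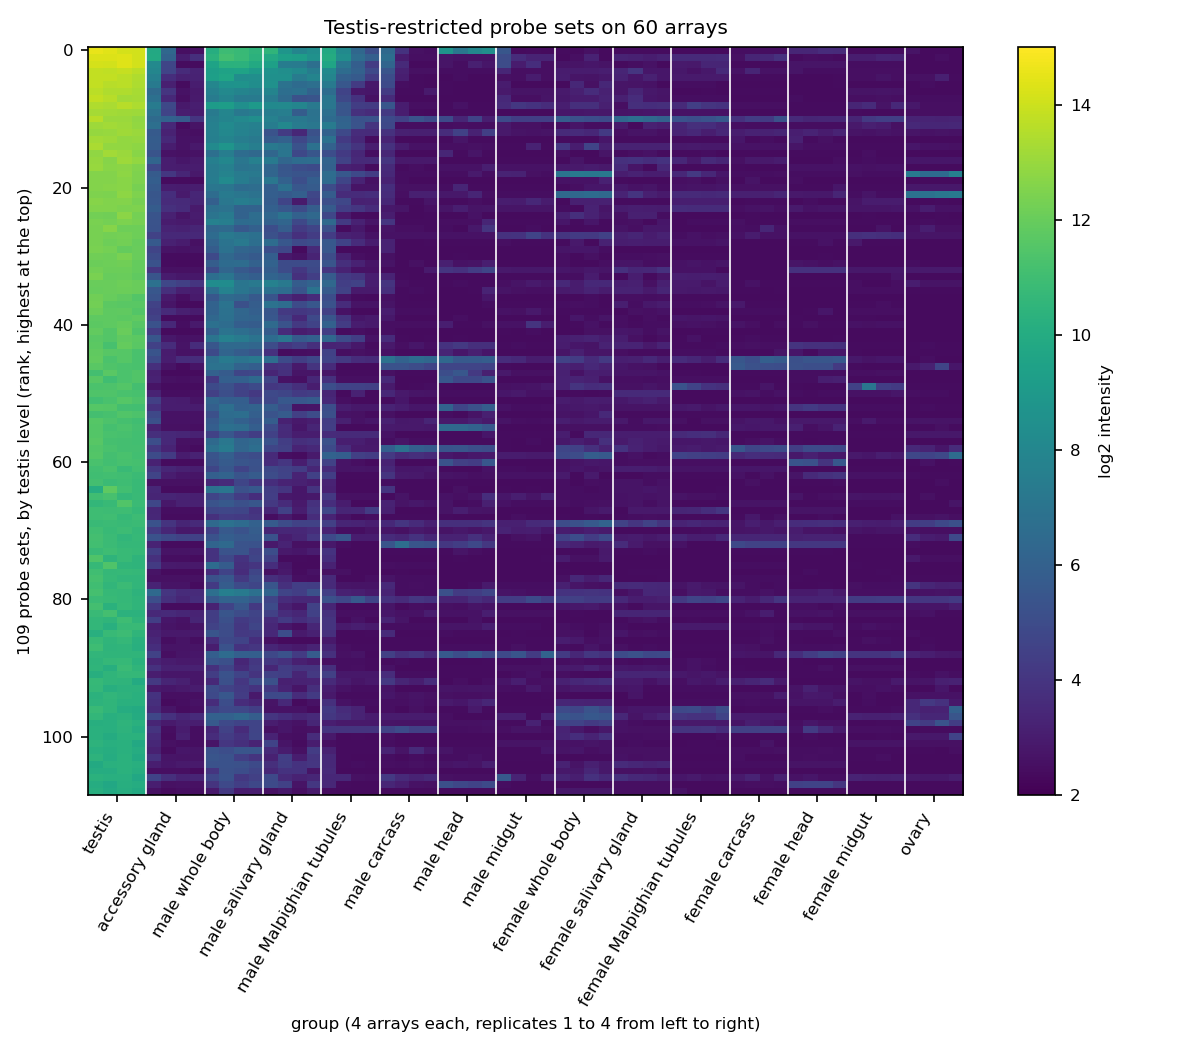
Log2 intensity of the 109 testis-restricted probe sets (rows, ranked by testis level with the highest at the top) on all 60 arrays (columns, replicates 1 to 4 of each group from left to right). Members stood at 10 or above on average in the testis, and fainter signal was seen in the male whole body, the male salivary gland, replicate 1 of the accessory gland and replicate 1 of the male Malpighian tubules.

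The brightest member was Ag.3L.720.0_CDS_s_at, at 14.57, 14.40, 14.17 and 14.10 on the testis arrays. Ag.2R.2137.0_CDS_at followed at 14.32, 14.33, 14.36 and 14.11, and Ag.2R.1859.0_CDS_at at 14.16, 14.09, 14.34 and 14.13. These 3 overlapped in range and cannot be ordered beyond the spread of the arrays. Ag.3R.705.0_CDS_at (13.76 ± 0.08, SD, n = 4, as for all values below), Ag.3R.1316.0_CDS_at (13.68 ± 0.16) and Ag.2R.2117.0_CDS_at, joined to AGAP001620 (13.61 ± 0.15), came next. The other members among the 10 brightest were Ag.2R.2720.0_CDS_at, Ag.3R.722.0_CDS_at, Ag.3R.725.0_CDS_at and Ag.2R.2520.0_CDS_at, with means between 13.18 and 13.47. Below them the set thinned upward: 47 members had a testis mean from 10 to 11, 26 from 11 to 12, 22 from 12 to 13 and 14 above 13.

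At the level threshold, the members just inside were Ag.2R.2195.0_CDS_at at 10.002, Ag.3R.928.0_CDS_at at 10.011 and Ag.2L.415.0_UTR_at (AGAP007107) at 10.124. Just outside lay Ag.2R.2962.0_CDS_at at 9.988, Ag.3R.2155.0_CDS_at at 9.972 and Ag.2R.3591.0_CDS_at at 9.913, whose gaps to the next tissue were all above 6. At the gap threshold, Ag.2R.2137.0_CDS_at passed with a gap of 5.023, Ag.3R.254.0_CDS_a_at (AGAP009317) with 5.039 and Ag.3R.684.1_CDS_s_at with 5.113. Ag.3L.130.0_CDS_a_at (4.986), Ag.2L.862.0_CDS_at (4.974) and Ag.2R.2299.0_CDS_at (AGAP003847, 4.963) missed it. Both thresholds thus fell within a continuous run of values.

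Testis replicates were close for most members. The SD over the 4 arrays had a median of 0.18 (0.02 to 0.71), against 0.19 for all 546 probe sets with a testis level of at least 10. Ag.3R.2313.0_CDS_at varied most, at 10.08, 11.79, 11.06 and 10.78, followed by Ag.2L.2339.0_CDS_at (SD 0.45), Ag.3R.1203.0_CDS_at (0.44), Ag.3R.1094.0_CDS_a_at (AGAP008896, 0.39), Ag.2R.2170.0_CDS_at (0.39) and Ag.2R.2938.0_CDS_at (0.37). The steadiest were Ag.3R.1457.0_CDS_at (AGAP008614, 0.02), Ag.2R.3524.0_CDS_at (0.03), Ag.2L.1300.0_CDS_a_at (0.03) and Ag.2R.1757.0_CDS_at (0.04). Replicate 4 was the lowest array by the members' median, and only 3 of the 104 members whose testis arrays ranged over more than 0.1 were highest there.

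A probe set was counted as detected in a group at a log2 of 5 or above on at least 3 of the 4 arrays. By this limit 70 of the 109 were detected in no dissected tissue other than the testis, 27 in 1 other, 10 in 2 others and 2 in 3 others. With the whole-body arrays counted as well, 39 were seen in the testis alone. The salivary gland was the next-brightest tissue for 79 members. The head and Malpighian tubules each came next for 7 members, the carcass, ovary and accessory gland for 5 each and the midgut for 1. The rule had capped these levels, so their order is a description.

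Residual signal differed by sex. The group median over the members was 5.94 in the male whole body, 4.06 in the male salivary gland, 3.30 in the accessory gland and 3.20 in the male Malpighian tubules. It was 2.82 in the female whole body and 2.65 in the female salivary gland. In the remaining groups it lay between 2.44, in the ovary, and 2.69, in the male carcass, near the floor. Detected members numbered 70 in the male whole body (64.2%, against 28.3% of all *Anopheles* probe sets) and 31 in the male salivary gland (28.4%, against 21%). They numbered 7 in the male Malpighian tubules (6.4%, against 24.8%). The male head and female whole body held 6 each (5.5%, against 23% and 29.8%). The other dissected groups held 3 or fewer. The midgut of neither sex held any, where 3469 probe sets (20.5%) were detected in the female and 3530 (20.9%) in the male midgut. The rule had kept every dissected tissue at least 5 below the testis, so low counts in dissected groups follow in part from the choice.

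The whole-body arrays had no part in the choice, and on them males and females were compared as entire animals. Whole bodies contain the organs on which the choice was made, and the testis is a male organ. A male excess of transcripts chosen as bright in the testis and dim in every dissected female tissue thus follows in part from the choice. Males were higher for 96 of the 109 (88.1%) by limma, with calls made where the log2 difference reached 1 and the adjusted p was under 0.05. Over all 16884 probe sets 10.9% were male-higher by this rule. None of the 109 was female-higher, a call that 12.0% of all probe sets received. The difference among the 96 had a median of 2.93 (1.04 to 8.14) on the log2 scale. All 4 male arrays lay above all 4 female arrays for 101 members, as they did for 15.5% of all probe sets. In whole-body RNA, the number of cells that carry a transcript and its amount per cell cannot be told apart.

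Ag.3L.720.0_CDS_s_at differed most. It stood at 10.12, 10.92, 10.76 and 10.48 in the male whole body and at 2.42, 2.36, 2.58 and 2.36 in the female. The sexes were far apart, with the female arrays at or near the floor (difference 8.14, SE 0.18, adjusted p = 1.17e-06). A difference from values at the floor says only how far the males lay above it. Ag.2R.2137.0_CDS_at (10.34, 11.09, 10.83 and 10.36 against 2.38, 2.53, 3.26 and 2.39) and Ag.2R.1859.0_CDS_at (9.54, 10.29, 10.34 and 9.91 against 2.69, 2.69, 2.77 and 2.69) showed the same separation. Their differences were 8.02 (SE 0.27) and 7.31 (SE 0.18), with adjusted p of 6.41e-06 and 2.01e-06. Ag.3R.705.0_CDS_at (6.34), Ag.3R.1316.0_CDS_at (6.12) and Ag.3R.725.0_CDS_at (5.53) completed the 6 largest. AGAP001620 was at 8.42 ± 0.32 in males and 2.96 ± 0.58 in females (difference 5.46, adjusted p = 4.37e-05).

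The 4 faintest members in the male whole body all had testis levels below the median of the 109. Ag.2R.2195.0_CDS_at, the member nearest to the level threshold in the testis, stood at 2.88, 4.17, 3.01 and 3.06 in the male and at 2.85, 2.86, 2.86 and 2.86 in the female whole body. Male replicate 2 stood above the other arrays, which lay close together, and the difference was not called (0.42, SE 0.29, adjusted p = 0.382). Ag.3R.2283.0_CDS_at was likewise at 3.47 ± 0.57 against 2.68 ± 0.05 and Ag.2R.1999.0_CDS_at at 3.92 ± 0.77 against 3.31 ± 0.06, neither of them called. For Ag.2R.3256.0_CDS_at, at 3.95 ± 0.56 in males and 2.47 ± 0.07 in females, the difference of 1.48 was called (adjusted p = 0.00631), although neither sex reached the detection limit.

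The plots of male against female means show most of the called members toward the left, at low female values. The female means of the 96 members called in the whole body ran from 2.37 to 5.25, with a median of 2.76, and those of the 45 called in the salivary gland from 2.40 to 3.83, with a median of 2.76. The highest whole-body value was that of Ag.2R.1071.0_CDS_s_at.

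**Figure D2:**
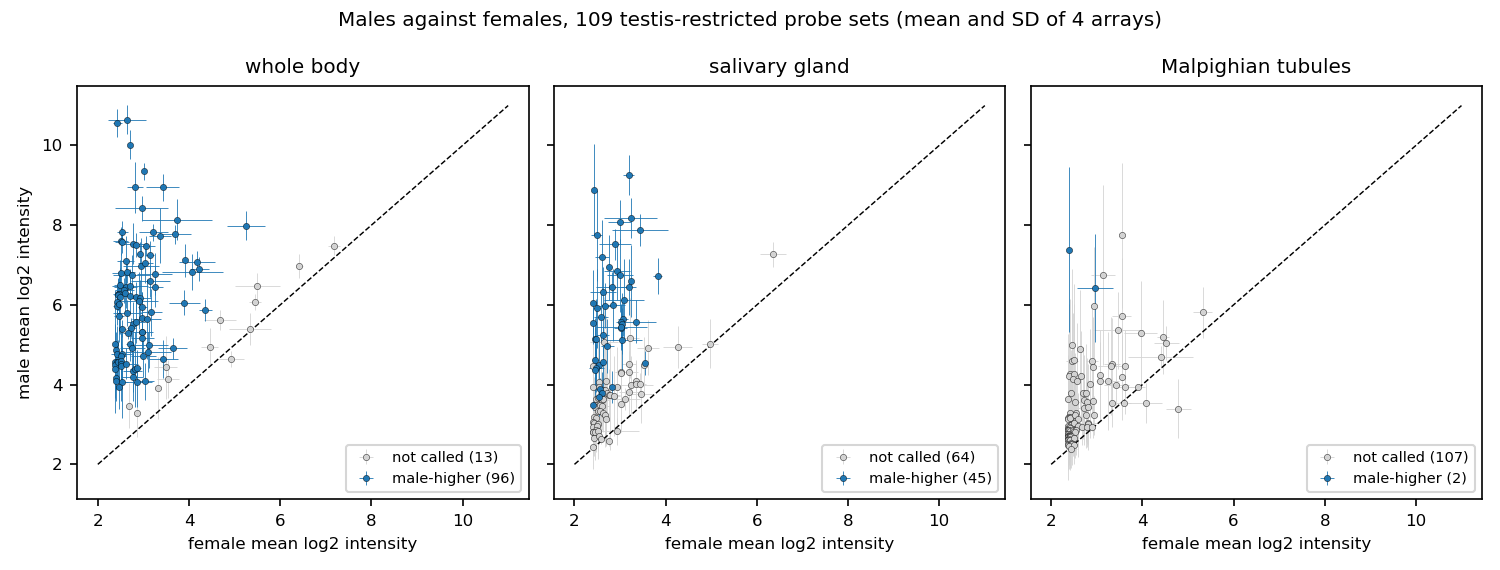
Mean log2 intensity of the 109 probe sets in males (vertical axis) against females (horizontal axis) in 3 tissues, with bars of 1 SD over 4 arrays and a dashed line of equality. Blue points were male-higher by limma without pairing: 96 in the whole body, 45 in the salivary gland and 2 in the Malpighian tubules. With the replicate number as a block, none was called in the tubules.

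Some members were measured in females as well. Detection in both whole-body groups was found for 6 members, and in the female whole body alone for none. Ag.UNKN.1113.0_CDS_s_at, on an unplaced scaffold, stood at 7.41, 7.83, 7.40 and 7.27 in males and at 6.99, 7.26, 7.20 and 7.27 in females. The lowest male array was level with the highest female one, and the difference of 0.30 (95% interval −0.02 to 0.62) did not pass the test. The same probe set was detected in the ovary, at 7.30, 6.52, 6.52 and 7.73, against 12.62 ± 0.14 in the testis. Ag.2R.1831.0_CDS_a_at, joined to AGAP001639, had a similar profile: 6.91, 6.91, 7.15 and 7.33 in the ovary, 12.56 ± 0.15 in the testis, and 6.98 ± 0.30 against 6.42 ± 0.07 in the male and female whole body. Its whole-body difference of 0.55 (95% interval 0.20 to 0.91, limma adjusted p = 0.0298) was too small for a call, which needed a log2 difference of 1. Ag.UNKN.1113.0_CDS_s_at and Ag.2R.1831.0_CDS_a_at were the only members detected in the ovary.

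The other members detected in both whole bodies were Ag.2R.1071.0_CDS_s_at (AGAP001419), Ag.2R.703.0_CDS_a_at (AGAP001273), Ag.2R.3524.0_CDS_at and Ag.3R.953.0_CDS_at. The first of these was called male-higher in the whole body (7.99 ± 0.36 against 5.25 ± 0.41, difference 2.73, adjusted p = 0.000331), and the other 3 were not called. Ag.3R.953.0_CDS_at (difference 0.63, limma adjusted p = 0.00756) and Ag.2R.3524.0_CDS_at (0.96, adjusted p = 0.046) missed the call only by a log2 difference under 1. Ag.2R.1071.0_CDS_s_at was detected in 3 other dissected tissues, as was Ag.3L.720.0_CDS_s_at (head, salivary gland and Malpighian tubules). Its suffix marks a probe set shared by several transcripts, so that its signal cannot be assigned to AGAP001419 alone. It was detected in the salivary gland of both sexes (6.36 ± 0.28 in females), in the Malpighian tubules of both sexes (5.32 ± 0.21 in females) and in the accessory gland, at 6.50, 6.08, 5.73 and 4.00. AGAP001273 was at 5.39, 5.94, 5.19 and 5.03 in the male and 4.89, 5.01, 5.83 and 5.62 in the female whole body. The arrays of the sexes overlapped and the difference was 0.05 (95% interval −0.65 to 0.75). Ag.3R.1094.0_CDS_a_at, joined to AGAP008896, was the single member with a higher mean in the female whole body, 4.93 ± 0.27 against 4.64 ± 0.21, a difference that did not pass the test (adjusted p = 0.296). Ag.2R.952.0_CDS_a_at, at 4.94 ± 0.47 in males and 4.45 ± 0.18 in females, was not called either.

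Among dissected tissues the salivary gland separated the sexes most. The rule had capped the higher of the male and female means in each tissue but had not used the difference between them. Males were higher for 45 of the 109 (41.3%), against 2.3% of all probe sets, and females for none, against 3.29%. The median difference among the 45 was 2.89 (1.0 to 6.48), and 81 members had all male above all female arrays, against 6.46% of all probe sets. Of the 45, 43 were also male-higher in the whole body. With the replicate number as a block, 26 of the 45 remained, and 169 of all probe sets were male-higher, against 389 without the block.

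In the male salivary gland Ag.3L.720.0_CDS_s_at stood at 10.52, 8.76, 7.92 and 8.36, and in the female gland at 2.41, 2.41, 2.42 and 2.43. The groups did not overlap and all female arrays were at or near the floor (difference 6.47, SE 0.55, adjusted p = 0.00151). Ag.2R.2137.0_CDS_at was at 9.84, 9.36, 9.22 and 8.60 in males and 3.31, 3.19, 3.02 and 3.23 in females (6.07, SE 0.25, adjusted p = 8.17e-05). Ag.2R.1859.0_CDS_at, at 9.39, 7.45, 7.42 and 6.73 against 2.40, 2.50, 2.66 and 2.40, differed by 5.26 (adjusted p = 0.00323). At the other end of the called members were Ag.3R.1942.0_CDS_at (4.54 ± 0.31 in males against 3.54 in females, difference 1.0) and Ag.2L.2754.0_CDS_a_at (3.48 ± 0.12 against 2.40, difference 1.08). For both, the males were under the detection limit. Without replicate 2, 24 members were called in the salivary gland, and without replicate 4, 28. Of all probe sets, 165 and 187 were then male-higher.

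Some of the probe sets chosen for other organs by the same thresholds were also higher on male salivary gland arrays. The median of the 34 Malpighian tubule probe sets on the male salivary gland arrays was 5.18, 6.57, 4.75 and 5.53, against 2.83 to 3.13 on the female ones. That of the 12 carcass probe sets was 6.74, 4.27, 4.34 and 4.74 in males and 3.70 to 4.16 in females, and that of the 40 accessory gland probe sets 5.09, 3.48, 2.73 and 2.55 in males and 2.46 to 3.54 in females. Of the latter set only male replicate 1 lay above the female range. The ovary probe sets were not higher in males (2.55 to 3.31 against 3.02 to 3.79). The 43 salivary gland probe sets were at 13.66 to 13.91 in females and at 3.62 to 3.94 in males. They had been chosen on the higher of the 2 sex means in this gland, so that contrast is a description of the choice. The part of tissue from other organs in the male salivary gland signal was not tested.

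In the Malpighian tubules and accessory gland the members' signal depended on the array. Their median on the male Malpighian arrays was 4.42, 3.05, 2.76 and 2.57 for replicates 1 to 4, and the number at a log2 of 5 or above was 44, 13, 8 and 3. On the accessory gland arrays the median was 4.54, 2.97, 2.70 and 2.76, with 41, 3, 1 and 0 members at that level. Replicate 1 stood above the rest in both tissues. It was the highest array for 101 of 105 members in the male tubules (96.2%, against 29.5% of all probe sets) and for 104 of 107 in the accessory gland (97.2%, against 30.8%), counting members whose arrays ranged over more than 0.1. In the male salivary gland replicate 1 was highest for 73 of 109 (67.0%, against 27.8%), and in the male carcass for 72 of 89 (80.9%, against 26.2%). In the male whole body replicate 2 was highest for 79 of 109 (72.5%, against 23.8%). The plot of array medians shows these arrays apart from their groups.

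**Figure D3:**
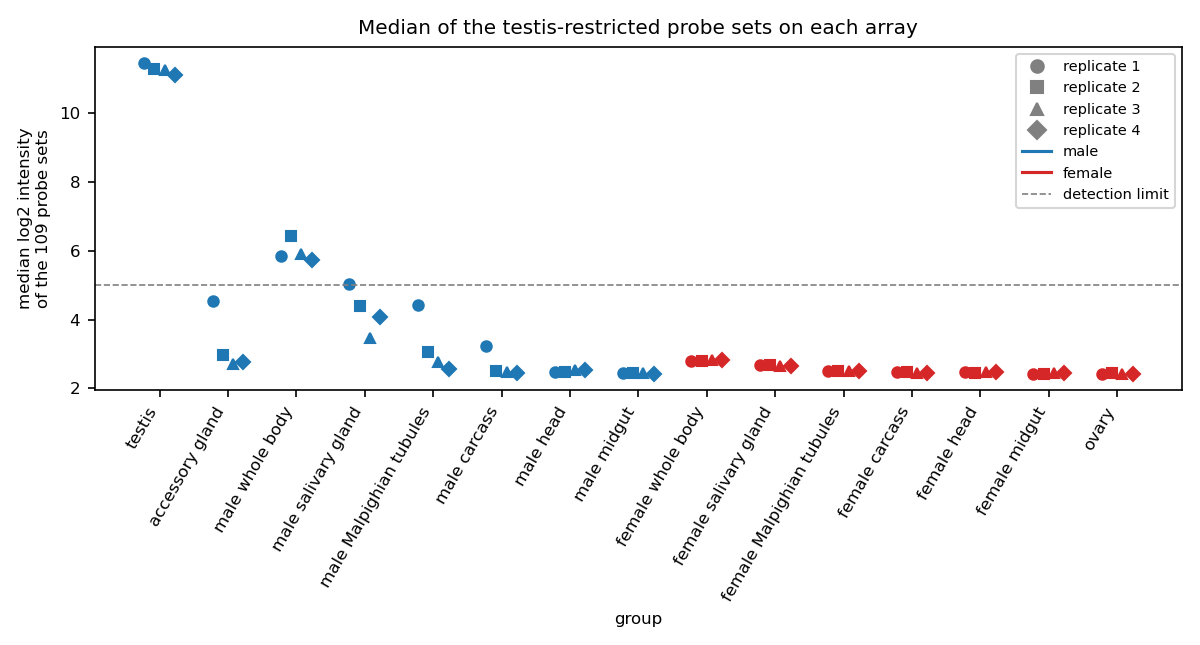
Median log2 intensity of the 109 probe sets on each of the 60 arrays, by group, with a marker shape for each replicate, blue for males and red for females, and a dashed line at the detection limit of log2 5. Replicate 1 was highest in the accessory gland (4.54), male Malpighian tubules (4.42), male salivary gland (5.04) and male carcass (3.22), whereas the female groups lay between 2.41 and 2.84.

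Other probe sets moved on some of these arrays too. On accessory gland replicate 1 the median of the Malpighian tubule probe sets was 5.21, against 2.79 to 3.15 on replicates 2 to 4, and that of the carcass probe sets 3.53 against 2.72 to 2.99. On male Malpighian replicate 1 the accessory gland probe sets were at 2.95, within the range of the other replicates (2.46 to 3.04), and the carcass probe sets at 2.47, near the floor. On male carcass replicate 1 the accessory gland probe sets were at 3.17, against 2.40 to 2.42 on the other replicates, and the Malpighian tubule probe sets at 3.07, against 2.74 to 2.79. The part of RNA from other organs in the signal of these arrays was not tested.

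For Ag.3L.720.0_CDS_s_at the male Malpighian arrays read 9.85, 8.19, 6.35 and 5.14, and all 4 female arrays were at 2.39 on average. Ag.3R.705.0_CDS_at was at 8.17, 6.58, 6.06 and 4.89 in males and 2.96 ± 0.39 in females. In the limma fit without pairing both were male-higher (differences 5.00, SE 1.0, and 3.46, SE 0.68, adjusted p = 0.0448 and 0.0427). They were the only members called in that fit. They made up 1.83% of the members, near the 1.85% of all probe sets that were male-higher, and 1.46% of all were female-higher. Larger differences than the second of them, in Ag.2R.2137.0_CDS_at (4.19, SE 0.88, adjusted p = 0.0531) and Ag.2R.1859.0_CDS_at (3.62, SE 1.10, adjusted p = 0.155), did not pass. All male arrays lay above all female arrays for 27 of the 109 members, and for 6.73% of all probe sets. Same-numbered male and female tubule samples deviated together, so the fit that takes up this pairing is the one with the replicate number as a block. Under it none of the 109 was called. Over all probe sets the block left 148 male-higher, against 312 without it. No member was called with any 1 of the replicate numbers left out in both sexes, and 1 was called without the male replicate 1 array alone.

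In the head 4 members were male-higher (3.67%), against 0.551% of all probe sets, and none female-higher, against 1.08%. All male arrays lay above all female arrays for 12 members, against 3.59% of all probe sets. Ag.3L.720.0_CDS_s_at was again the first: 8.72, 7.14, 8.03 and 8.44 in the male head and 3.42, 3.40, 3.66 and 3.58 in the female, with no overlap (4.57, SE 0.34, adjusted p = 0.00158). AGAP008689, measured by Ag.3R.1756.0_CDS_at, read 6.44, 6.41, 6.09 and 5.53 against 3.15, 2.51, 2.76 and 3.31 (3.18, SE 0.27, adjusted p = 0.00253). It was at 6.30 ± 0.49 in the male whole body and 11.28 ± 0.17 in the testis, on scales set separately from that of the head. Ag.3R.2196.0_CDS_at (5.11 ± 0.37 against 2.80 ± 0.37, adjusted p = 0.00781) and Ag.3L.720.1_CDS_a_at (4.61 ± 0.41 against 2.97 ± 0.11, adjusted p = 0.0129) were the others.

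The male head signal was confined to few members. The median over the 109 was 2.55 in the male and 2.47 in the female head, 6 members were detected in males and 3 in females, and the next-brightest testis member, Ag.2R.2137.0_CDS_at, stood at 2.76, 2.62, 2.65 and 2.65 in the male head, near the floor. The 4 calls were all shared with the whole body. With the replicate number as a block none of the 4 was called, and with 1 replicate left out 3 were called without replicate 1, 2 without replicate 2 or replicate 4, and 0 without replicate 3. Over all probe sets the block left 23 male-higher in the head, against 93 without it.

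Carcass and midgut gave no calls by limma in either direction. In the carcass 9 members (8.26%) had an unadjusted p under 0.05, all with the higher mean in males, whereas 21.3% of all probe sets passed it in either direction, and 11 had all male above all female arrays, near the 10.2% of all probe sets. Male-higher calls reached 3.91% and female-higher calls 3.35% of all probe sets there. In the midgut 5 members (4.59%) had an unadjusted p under 0.05, against 16.5% of all probe sets, with the higher mean in males for 4 and in females for 1. There all male arrays lay above all female arrays for 7 of the 109 members, near the 7.2% of all probe sets. Of all probe sets 3.21% were male-higher and 2.59% female-higher in the midgut. The rule had capped the members' levels in both tissues, so their lower shares are descriptions of the chosen set. Ag.3R.254.0_CDS_a_at, joined to AGAP009317, was the member brightest in the carcass, at 6.47 ± 0.33 in males and 5.57 ± 0.34 in females. It was detected in the head of both sexes too (5.88 ± 0.35 and 5.42 ± 0.17). Ag.2R.1852.0_CDS_at, the 1 member with the midgut as its next tissue, read 4.49, 7.11, 4.41 and 4.20 in the female midgut. Its mean there rested on replicate 2, and the difference from males was not called (adjusted p = 0.113).

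The sex difference varied between the 5 somatic tissues for 69 of the 109 in limma's F-test, which covers the interaction of sex with tissue over 40 arrays (adjusted p under 0.05), against 29.6% of all probe sets. The median male-minus-female difference over the members was 1.18 in the salivary gland, 0.52 in the Malpighian tubules, 0.16 in the carcass, 0.03 in the head and 0.00 in the midgut, beside 2.71 in the whole body. Over all probe sets this median was 0 in each tissue. Without replicate 2, 45 members passed, as did 4095 of all probe sets.

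Brighter testis members were brighter in several male groups. The 14 members above a testis level of 13 had a median of 8.20 in the male whole body and 7.39 in the male salivary gland, and the 47 members between 10 and 11 had medians of 4.64 and 3.49. All 14 of the first were detected in the male whole body, as were all 22 members between 12 and 13, 21 of the 26 between 11 and 12 and 13 of the 47 below 11. Over the 109 members, Spearman's rho with the testis level was 0.853 for the male whole body, 0.765 for the male salivary gland, 0.737 for the male Malpighian tubules and 0.606 for the accessory gland. It was 0.020 for the female whole body, 0.021 for the male head and −0.072 for the ovary. Members share arrays and are not replicates, and each probe set's own response enters both levels, so these are descriptions. The rule also shaped them: it kept each dissected tissue at least 5 below the testis, a cap that rose with the testis level, and only the whole body was free of it. The testis mean lay above the male whole-body mean by a median of 5.58 (3.61 to 6.99), on scales that had been set separately.

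**Figure D4:**
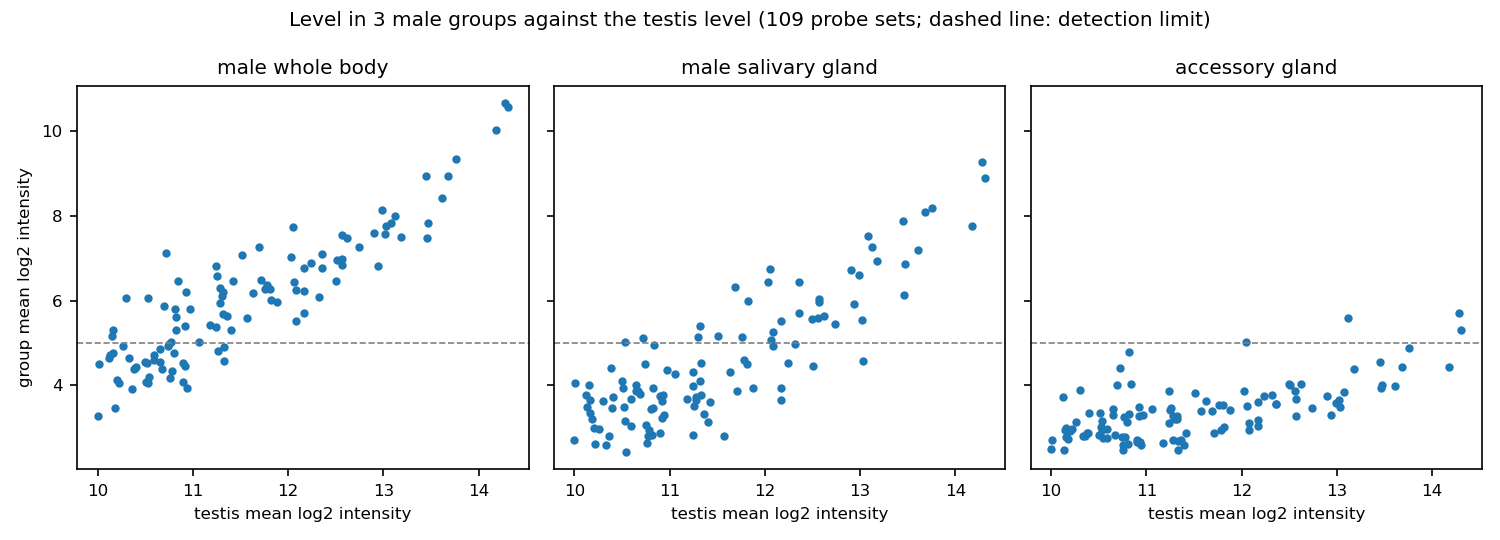
Mean log2 intensity of each of the 109 probe sets in the male whole body, male salivary gland and accessory gland (vertical axes) against its testis mean (horizontal axis), with a dashed line at the detection limit of log2 5. Members with higher testis levels tended to be higher in the whole body (Spearman's rho 0.853), salivary gland (0.765) and accessory gland (0.606), and for the last pair of tissues the choice of members set a cap that rose with the testis level.

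By the chromosome arm in their identifiers, 43 of the 109 lay on 3R (39.4%, against 18.8% of all *Anopheles* probe sets), 37 on 2R (33.9%, against 26.3%), 16 on 2L (14.7%, against 20.3%) and 9 on 3L (8.26%, against 14.8%). Another 4 were unplaced. None was on the X, which held 1403 probe sets (8.31% of all). The testis detected 207 X probe sets, 3.71% of the 5583 it detected, and 9 of them reached a level of 10. All 9 were brighter in another tissue. The nearest to a gap above 0, Ag.X.146.0_UTR_s_at, was at 10.01 ± 0.25 in the testis and 11.09 in the ovary, and the farthest lay 5.40 below the Malpighian tubules. At a testis level of at least 8 there were 40 X probe sets, of which 1 exceeded all other tissues by 5.

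On 3R, by contrast, 140 probe sets reached a testis level of 10, and 43 of them (30.7%) had the gap of 5. This share was 20.8% on 2R, 14.7% on 2L and 11.2% on 3L. Above a testis level of 12, 14 of 25 probe sets on 3R (56.0%) had the gap, against 16 of 61 on 2R (26.2%). Arms of neighbouring probe sets are not independent, and these shares are descriptions of the selected set. For all 13 members with a gene identifier, both neighbours in the numbering of genes were joined to probe sets on the same arm, as were 98.2% of neighbours over all joined genes.

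**Figure D5:**
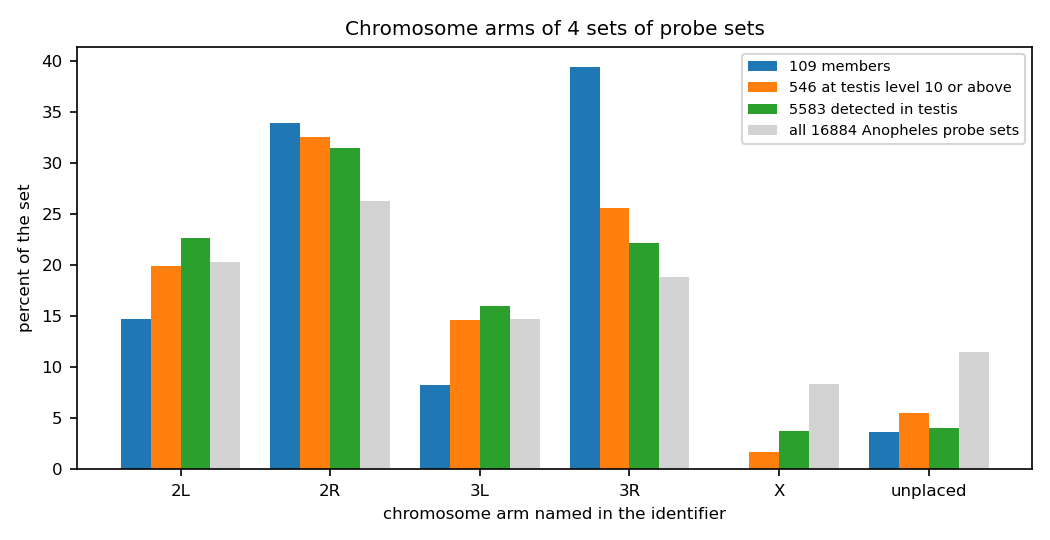
Percent of probe sets on each chromosome arm (horizontal axis, from the identifiers) for the 109 members, the 546 probe sets at a testis level of 10 or above, the 5583 detected in the testis and all 16884 *Anopheles* probe sets. The members' share was 39.4% on 3R and 0 on the X, where the other sets held 1.65%, 3.71% and 8.31%.

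Identifiers marked as coding sequence made up 105 of the 109 (96.3%), against 83.3% of all probe sets and 60.6% of the 546 at a testis level of 10 or above. Of the members, 86 ended in _at alone, 12 in _a_at and 11 in _s_at, the suffix for probe sets shared by several transcripts, whose signal cannot be assigned to 1 gene. The 109 came from 107 clusters of the array design, since clusters 3L.720 and 3R.1947 held 2 members each. The pair of 3R.1947 was at 12.50 ± 0.04 and 12.99 ± 0.26 in the testis.

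A further 9 probe sets of 7 of these clusters were not members, and for all 9 the testis was the brightest tissue. In cluster 3L.720, Ag.3L.720.0_UTR_s_at reached 14.89 ± 0.01 in the testis, 13.30 in the male whole body and 12.44 in the salivary gland, and it missed the gap. The probe set Ag.2R.952.0_UTR_a_at was at 13.27 ± 0.16 in the testis and 10.09 in the ovary, whereas the member of its cluster, Ag.2R.952.0_CDS_a_at, was at 10.26 ± 0.15 and 4.65. In cluster 2L.415 the order was the other way: the UTR probe set of AGAP007107 was a member at 10.12 ± 0.23, and the coding probe set stood at 5.22 ± 0.26. In cluster 2R.703, beside the member joined to AGAP001273, Ag.2R.703.1_a_at was at 12.14 ± 0.15 in the testis and 8.05 in the ovary. Its whole-body mean was 7.55 in males and 7.82 in females, and that of Ag.2R.952.0_UTR_a_at was 8.63 and 9.20. For the rest of the 9 the whole-body mean was higher in males. Probe sets of 1 cluster can differ in how strongly they respond, so their levels are given side by side only. In each of these 7 clusters some probe sets met the thresholds and others did not.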

How the data were processed

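Total RNA (50 ng) had been amplified in 2 cycles, labelled with biotin and hybridized to Affymetrix arrays, 60 in all. The authors made the intensities with GCRMA, a background correction and summary of probes (no version was given in the sources used here), normalized them within each tissue, and deposited them as linear intensity values. Here they were taken as log2 with no further normalization. Arrays were grouped by the tissue and sex of their labels. The sexes were compared within each tissue in R 4.3.3 by the lmFit and eBayes steps of limma 3.58.1 over all 16884 *Anopheles* probe sets, with Benjamini-Hochberg adjustment over all of them. The fit was checked on simulated data. Probe sets at the floor on all arrays of a group had no spread there, and limma then drew on the variance shared across probe sets. Other steps used Python 3.11.15 with pandas 2.3.3, numpy 2.4.6, scipy 1.17.1 and matplotlib 3.10.9. The number of arrays, 4 a group, limits the precision of every mean.

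The members, gene lists, rule for naming and alternatives were chosen with earlier results of these data known. Named were the 10 brightest members and those with the largest and smallest whole-body differences and the lowest male whole-body means. In each somatic tissue, the called members with the largest and smallest differences were named. Members at the thresholds and those with extreme testis SD were named as well. Members detected in females, widespread members and probe sets of shared clusters were named after their values were seen. Gene identifiers were joined where relative abundances over at least 3 tissues matched 1 probe set within 0.0006. This held for 1174 of 1352 genes. No table of gene products or sequences for these identifiers was used here, and the gene lists could not be evaluated.

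Same-numbered male and female samples were taken as paired where every correlation of their deviations from group means passed 0.1. This held for the Malpighian tubules (0.15 to 0.33) and for no other tissue, where the lowest correlation ran from −0.24 in the head to 0.07 in the midgut.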

Additional observations from a re-analysis of the deposited data

Results flagged for a closer look

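On a test of whether 1 of 4 arrays lay far from the rest of its group, 5 of 35 groups of values stood out, where chance gives about 1 in 20. Accessory gland replicate 1 had a member median of 4.54 (the other arrays were at 2.70 to 2.97). Male carcass replicate 1 had a median of 3.22, against 2.46 to 2.50. Female head replicate 2 (2.45) and male midgut replicate 4 (2.43) were the lowest of their groups by 0.02 or less. Ag.2R.2137.0_CDS_at read 14.11 on testis replicate 4, against 14.32 to 14.36. The sex difference of 69 members varied between the somatic tissues by limma's F-test.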

How the results depend on the processing

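The number of members was 62 at a testis level of at least 11, and 107 to 114 with 1 replicate left out. In the whole body 64 to 96 of the members were male-higher under the other settings and 86 to 90 with 1 replicate left out. The lowest count came from testing only detected probe sets, which 70 members passed. With the replicate number as a block the counts were 85 in the whole body, 26 in the salivary gland, and 0 in both the head and the Malpighian tubules. Over all probe sets the block gave 1615, 169, 23 and 148 male-higher in these tissues, against 1833, 389, 93 and 312 without it. Trend and robust variances gave 28 in the salivary gland, where 146 of all probe sets were male-higher. Testing only detected probe sets gave 2 in the carcass and 6 in the Malpighian tubules, and left no member to test in the midgut. Of all detected probe sets it called 802 of 4448 male-higher in the carcass and 466 of 4412 in the tubules. A single fit of all 60 arrays gave 3 in the carcass, 26 in the Malpighian tubules and 1 in the midgut, and 1 female-higher member in each of the Malpighian tubules and midgut. Of all 16884 probe sets it called 880 male-higher in the carcass, 534 in the tubules and 712 in the midgut. Female-higher were 398 in the tubules and 606 in the midgut. Without probe sets ending in _s_at or _x_at, 1 member was called in the Malpighian tubules, beside 271 of all 15498 probe sets tested. With 1 replicate left out, the counts ran from 0 to 3 in the head, and those of the F-test from 45 to 69. With the fit lacking only the male replicate 1 array counted too, the range was 0 to 1 in the carcass and Malpighian tubules. In the salivary gland it was 24 to 41. The 1 call in the tubules came from that added fit. Over all probe sets the same fits called 29 to 49 male-higher in the head and 222 to 496 in the carcass. They called 112 to 220 in the tubules and 165 to 334 in the salivary gland. Female-higher counts of members ran from 0 to 1 in the head and midgut with 1 replicate left out. Without the male replicate 1 array alone, a choice made after seeing the data, 1 was called in the Malpighian tubules and 41 in the salivary gland, 40 of them among the 45. The cause of these changes was not tested. Of 49 named sex differences, 48 kept their direction under every setting in which they were tested. Only 34 were tested among detected probe sets and 42 without probe sets ending in _s_at or _x_at. The alternative settings gave 517 results for these differences. Of the results, 465 kept the call or its absence, 47 lost a call, 3 gained one and 2 were reversed. The whole-body difference of AGAP001273 (Ag.2R.703.0_CDS_a_at) turned to −0.10 without replicate 1 and −0.25 without replicate 2, in a range of −0.25 to 0.28 with 1 replicate left out. At a detection limit of log2 4 the male salivary gland held 53 members and at log2 6 it held 16. The floor of the intensities limits every difference from it.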
